A study of Gallus gallus with 300 samples.

Results

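The genes described are the 3 fibroblast growth factor (FGF) receptor genes FGFR1, FGFR2 and FGFR3, the Sprouty genes SPRY1 and SPRY2, the bone morphogenetic protein gene BMP2 and the inhibitory Smad gene SMAD7. They are 7 of the 13631 gene symbols in the deposited per-cell tables, and they were picked by symbol. Their levels were read in supporting cells, defined by high GJB6, and in hair cells, which were divided by the level of OCM and by detection of ATOH1. GJB6 encodes a gap junction protein of supporting cells, OCM encodes the calcium-binding protein oncomodulin of mature hair cells, and ATOH1 encodes the transcription factor that starts hair cell differentiation.

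FGF receptors are receptor tyrosine kinases that bind secreted FGFs and signal through the MAP kinase cascade. Sprouty proteins are made in response to that cascade and dampen it, so they serve as feedback inhibitors. BMPs are secreted ligands of the TGF-beta superfamily that signal through serine/threonine kinase receptors and receptor-regulated Smads, and SMAD7 blocks those receptors from within the cell. In the inner ear both pathways take part in forming the sensory patches, and in birds supporting cells keep the capacity to replace lost hair cells.

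The study profiled single sorted cells of the sensory epithelium of the utricle, a gravity-sensing organ of the inner ear, from wild type chickens at posthatch day 7. The labels put all 300 cells in 1 group, on 5 plates numbered 2 to 6, and describe 2 sort batches of 270 cells each, from pools of 4 to 8 epithelia per experiment. No label ties a cell to an animal or a batch to a plate, so no replicate animals could be compared, no test between groups of cells was run, and every SD is that of plate means. After 24 cells with under 1000 genes or under 50000 counts were left out, the median cell had 406691 counts. Levels are counts per 1000000 counts of the cell (CPM).

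A supporting cell had GJB6 at 1000 CPM or more and a larger share of 16 supporting cell markers than of 22 hair cell markers at 10 CPM or more. A hair cell had GJB6 under 1000 CPM and the larger share of hair cell markers. This gave 90 supporting cells (14, 12, 27, 22 and 15 on plates 2 to 6) and 170 hair cells (30, 36, 29, 39 and 36), and 16 cells met neither rule. Supporting cells had a lowest GJB6 of 3854 CPM and hair cells a highest of 891 CPM, with 17 hair cells between 300 and 1000 CPM and 10 unclassed cells between 1000 and 3000 CPM. Of the hair cell markers 18 reached 10 CPM in at least 50% of hair cells, and of the supporting cell markers 15 did so in supporting cells. OCM was at 5000 CPM or more in 64 hair cells, called OCM-high, and lower in the others, called OCM-low. The cut at 5000 CPM had 40 hair cells between 1000 and 5000 CPM below it and 10 between 5000 and 10000 CPM above it. ATOH1 reached 10 CPM in 47 hair cells, of which 24 were under 50 CPM, and another 12 hair cells had ATOH1 reads below 10 CPM. The classes differed in complexity, with medians of 3469 genes in hair cells and 1797.5 in supporting cells, or 2938 and 1606.5 after every cell was thinned to 50000 counts.

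Markers of other cell types were summed in both classes. The summed level of the 8 stromal markers in the files had a median of 0 CPM in either class and plate means of 0.0734 to 22.1 CPM in hair and 0 to 4.96 CPM in supporting cells, with COL1A1, PDGFRA, PDGFRB and DCN at 0 in both. The 5 immune markers in the files had plate means of 21.4 to 70.7 CPM in hair and 83 to 473 CPM in supporting cells. CSF1R was at 0 in both classes, and PTPRC and LCP1 were at 0 in supporting cells. Their summed level had a median of 0 CPM in either class and a highest value of 709 CPM in hair and 2362 CPM in supporting cells. Glial markers (5 in the files) had plate means of 22 to 107.1 CPM in hair and 29.5 to 130.9 CPM in supporting cells. Neuron markers (7 in the files) had 107.8 to 236.6 CPM in hair and 20 to 337 CPM in supporting cells, with NEFM, NEFH and TUBB3 at 0 in supporting cells. Melanocyte markers (4 in the files, TYRP1 at 0 in both) had 23.5 to 51.01 CPM and 0 to 77.8 CPM. The 4 dark cell markers in the files had 114.1 to 331 CPM in hair and 180 to 1051 CPM in supporting cells, with KCNE1 at 0 in supporting cells. The endothelial list had 1 member in the files, with plate means of 11.6 to 42.4 CPM in hair and 57.2 to 225.1 CPM in supporting cells. The erythroid list had 0. The part of these cell types in the results was not tested.

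Hair and supporting cells differed in the levels of the members. FGFR1, SPRY1 and SPRY2 were higher in supporting cells, and BMP2, FGFR2 and SMAD7 were higher in hair cells. All 6 members that reached 10 CPM in at least 5 cells differed by 2-fold or more, 3 of them higher and 3 lower in hair cells, and FGFR3 did not reach that level. Among all 10677 genes measured the same way, 28.2% were higher in hair cells by 2-fold or more and 25% lower. A share of 53.2% of all genes thus passed 2-fold one way or the other, and the count of 6 is to be read against it. The members were chosen with earlier results of these data known, so the count is a description.

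**Figure D1:**
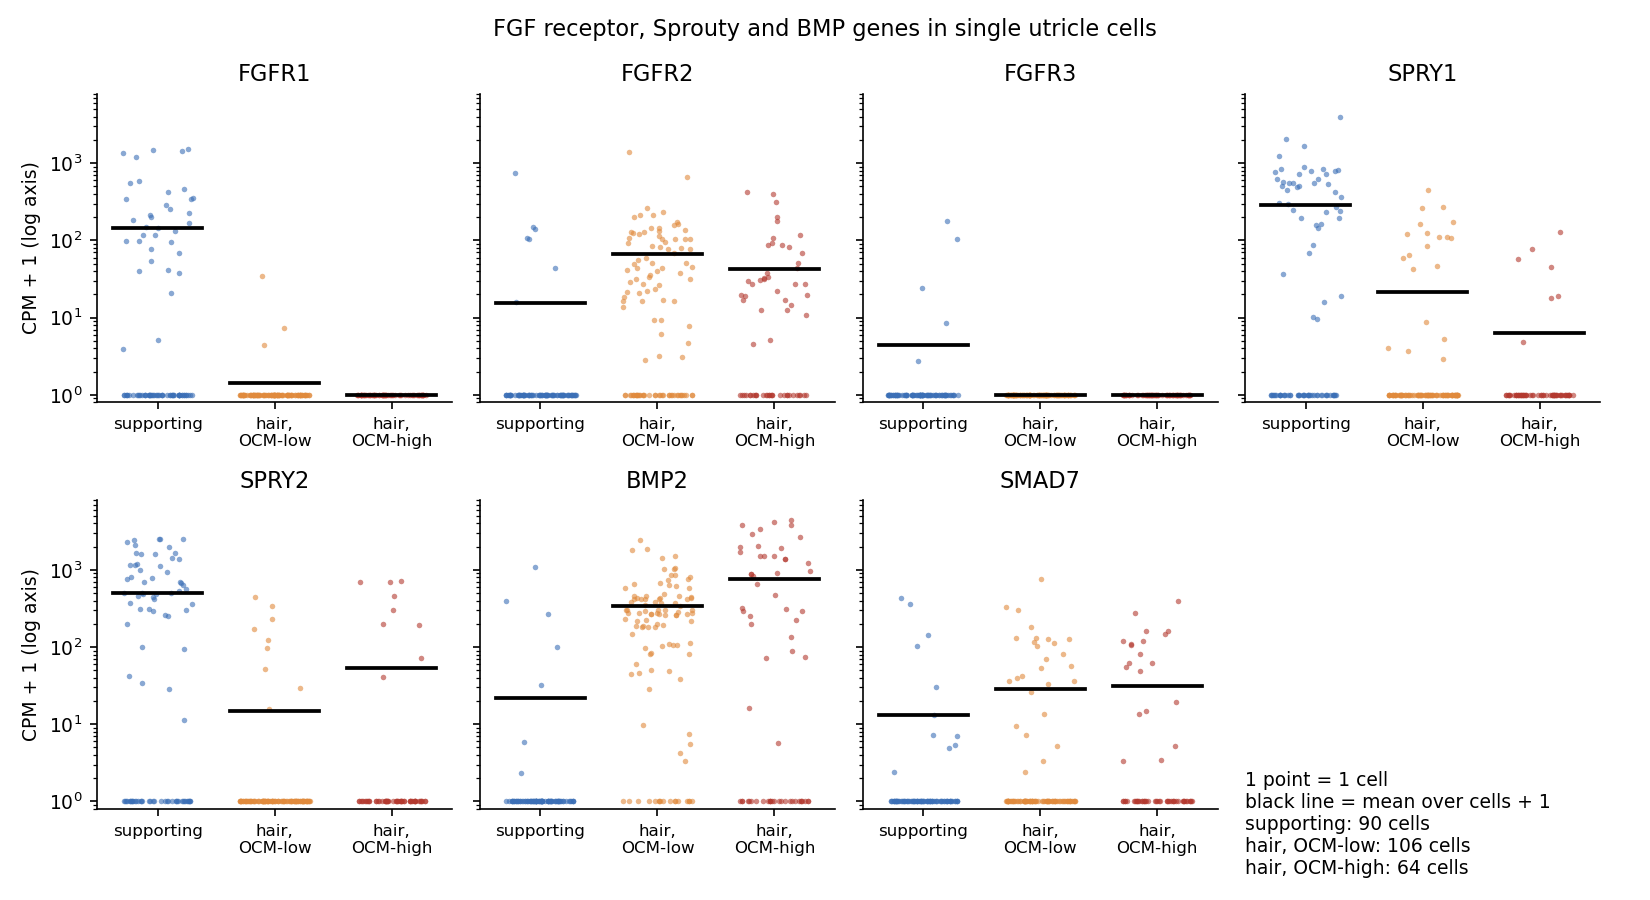
Level of each gene in every classed cell, as CPM + 1 on a log axis, for 90 supporting cells and for OCM-low and 64 OCM-high hair cells, with a black line at the mean over cells. FGFR1 reads lie almost entirely in supporting cells, FGFR2 and BMP2 reads mostly in hair cells, and every gene has cells of each kind at 0.

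The receptor genes come first. FGFR1, which encodes the receptor that the mouse cochlea needs to form its sensory epithelium, had plate means of 143.2, 67.5, 163.6, 173.8 and 122.3 CPM in supporting cells on plates 2 to 6. In hair cells the plate means were 0.212, 0, 1.27, 0 and 0 CPM. The plates did not overlap, and the lowest supporting cell plate was far above the highest hair cell plate. The share of all measured genes whose plates do not overlap is not given here, so such statements describe single genes only. The mean was 134.1 ± 42.2 CPM in supporting and 0.297 ± 0.553 CPM in hair cells (SD over 5 plate means), a log2 ratio of -6.70 with a pseudocount of 1 CPM, and from -7.45 to -6.10 on single plates. FGFR1 reached 10 CPM in 34 of 90 supporting cells, 37.8% (27.8 to 48.6%, exact binomial interval), and in 1 of 170 hair cells, 0.588% (0.0149 to 3.23%). Thinned to 50000 counts, the shares with a count were 36.7% and 0%. The summed counts were 4254 (4127 to 4384, exact Poisson interval) in supporting and 17 (9.90 to 27.2) in hair cells.

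FGFR1 was uneven among supporting cells. Over cells the lowest and the median value were 0 CPM and the highest was 1519 CPM, and 5 cells held 50% of the summed CPM. Among the 34 supporting cells at 10 CPM or more the median was 191.8 CPM. The share of supporting cells with FGFR1 was 57.1, 33.3, 40.7, 31.8 and 26.7% on plates 2 to 6, so no plate lacked it and plate 2 had most. The size of the ratio depended on the class rule: it was -4.72 when cells were classed by marker shares without GJB6, and -5.02 with a GJB6 limit of 3000 CPM, and both rules count cells with both kinds of marker among the hair cells. In the 16 unclassed cells, 4 reached 10 CPM of FGFR1, with a highest value of 319 CPM.

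FGFR2 encodes the receptor whose epithelial splice form binds FGF3 and FGF10, and gene-level counts do not separate its splice forms. Its plate means were 58.3, 56.6, 35.7, 29.5 and 101.3 CPM in hair cells on plates 2 to 6. In supporting cells they were 7.49, 3.63, 31.8, 6.37 and 10.02 CPM. Hair cells were higher on all 5 plates, but plate 4 of the supporting cells lay above plate 5 of the hair cells, and on plate 4 the log2 ratio was 0.16. The means were 56.3 ± 28.2 and 11.9 ± 11.4 CPM (SD over 5 plate means), with a log2 ratio of 2.15. In hair cells 92 of 170 reached 10 CPM, 54.1% (46.3 to 61.8%), from 41.4% on plate 4 to 73.3% on plate 2, and in supporting cells 7 of 90 did, 7.78% (3.18 to 15.4%). After thinning the shares were 47.1 and 7.78%. A single supporting cell on plate 4, with 738 CPM, held 56.8% of the FGFR2 of that class, so the level of that plate rests largely on it.

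FGFR3, the receptor known in mice for the balance of pillar and Deiters' cells in the cochlea, was nearly undetected. In supporting cells 5 of 90 had reads and 3 reached 10 CPM, 3.33% (0.693 to 9.43%), with a highest value of 175.9 CPM. Its plate means in supporting cells were 9.01, 0, 6.86, 0 and 0 CPM, and 1 cell held 56.5% of the summed CPM. The cells with reads thus came from plates 2 and 4. In hair cells there were 0 counts in 170 cells, which allows reads in up to 1.76% of cells.

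The receptors were then contrasted within each cell. FGFR2 alone was detected in 92 of 170 hair cells, FGFR1 alone in 1, and no FGF receptor of the 3 at 10 CPM in 77, 45.3% (37.7 to 53.1%). No hair cell had FGFR1 and FGFR2 together at 10 CPM or more, although 2 of the 3 hair cells with any FGFR1 reads also had FGFR2 reads. Of 90 supporting cells 27 had FGFR1 alone, 30% (20.8 to 40.6%), 5 had FGFR1 with FGFR2, 2 had FGFR1 with FGFR3, 2 had FGFR2 alone, 1 had FGFR3 alone and 53 had none. Of the 7 supporting cells with FGFR2, 5 also had FGFR1, while FGFR1 was found in 34 of all 90. Among the 16 unclassed cells, 3 had FGFR1 and FGFR2 together.

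**Figure D2:**
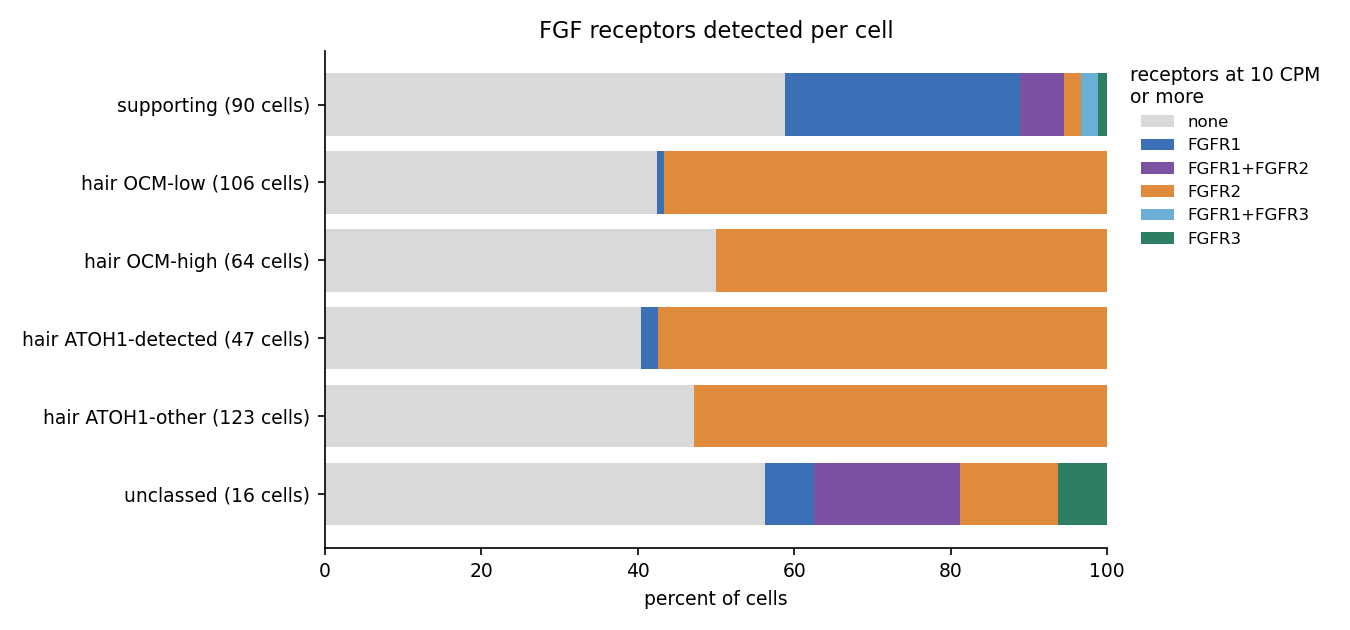
Percent of cells with each combination of FGFR1, FGFR2 and FGFR3 at 10 CPM or more, in supporting cells, in hair cells split by OCM and by ATOH1, and in unclassed cells. FGFR2 without FGFR1 made up 54.1% of all hair cells, and combinations with FGFR1 are the largest detected part in supporting cells.

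As a measure per cell, the log2 ratio of FGFR2 + 1 to FGFR1 + 1 CPM was averaged over the cells of a class. Its sign depends on the lengths of both genes, which were not used here, so only its difference between classes is read. It was 4.24, 3.44, 2.22, 2.79 and 3.82 in hair cells on plates 2 to 6 and -3.77, -2.04, -2.46, -2.31 and -1.63 in supporting cells. The plates of the classes did not overlap, and the difference was 5.74. In 66 hair cells and 53 supporting cells there were reads of neither receptor, which puts the ratio at 0. Within hair cells the contrast was 2.96 ± 0.863 in OCM-high and 3.55 ± 1.001 in OCM-low cells, and 3.34 ± 1.27 with and 3.31 ± 0.782 without ATOH1 (SD over 5 plate means). These differences were smaller than the spread between plates.

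**Figure D3:**
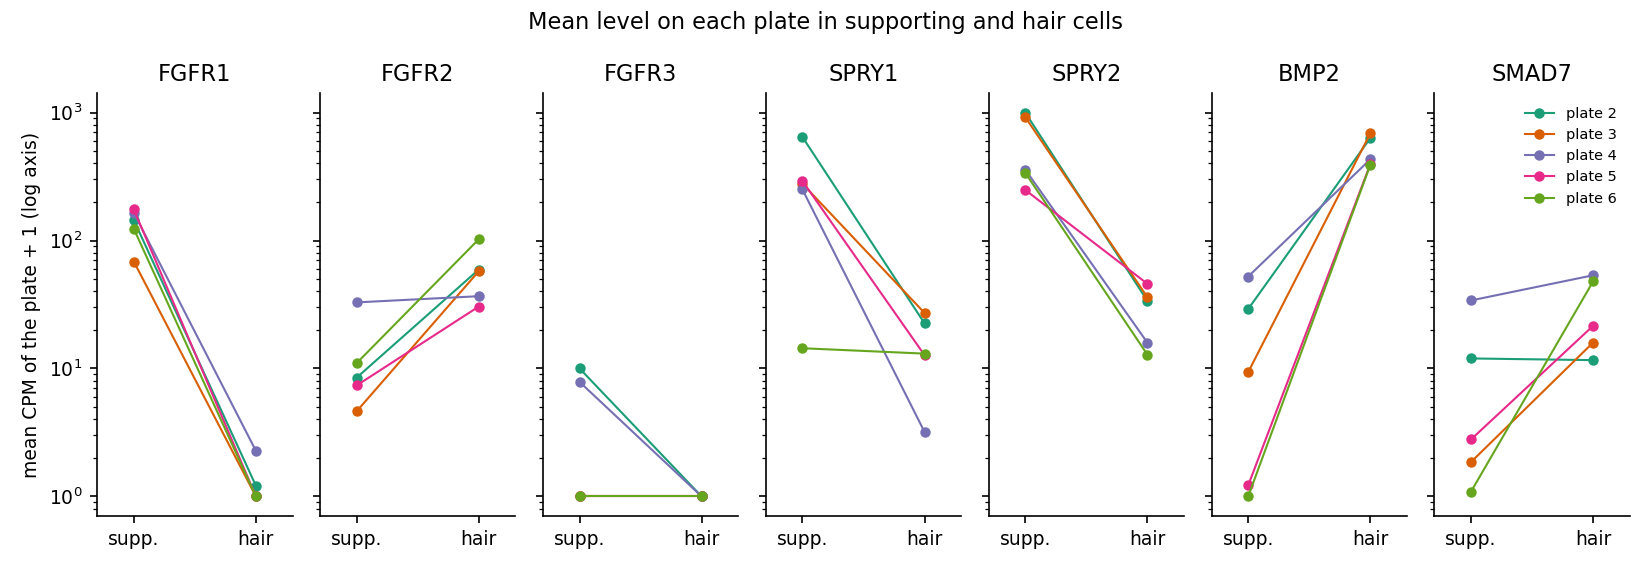
Mean CPM + 1 on each of the 5 plates, on a log axis, in supporting cells (left) and hair cells (right) for each gene, with a line per plate. FGFR1, SPRY2 and BMP2 plates do not overlap between the classes, SPRY1 on plate 6 is nearly level, and SMAD7 lines run from level to steep. The share of all measured genes without such overlap is not given.

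The Sprouty members SPRY1 and SPRY2 were higher in supporting cells, the class with more FGFR1. SPRY3, which is not a member, went the other way with a log2 ratio of 2.78, detected in 14.7% of hair cells. SPRY1 had plate means of 643, 276.6, 249.4, 290.7 and 13.4 CPM in supporting cells and of 21.5, 26.2, 2.20, 11.7 and 12.1 CPM in hair cells. On plate 6 the classes were level, with a log2 ratio of -0.14, and on the other plates it was -6.29 to -3.35. The overall ratio was -4.23, from 294.6 ± 225.2 and 14.7 ± 9.36 CPM (SD over 5 plate means). SPRY1 reached 10 CPM in 42 of 90 supporting cells, 46.7% (36.1 to 57.5%), and in 21 of 170 hair cells, 12.4% (7.81 to 18.3%). On plate 6 it did so in 1 of 15 supporting cells.

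SPRY2 had plate means of 996, 918, 356, 247.2 and 337 CPM in supporting cells and of 32.8, 35.1, 14.9, 44.9 and 11.8 CPM in hair cells. The plates of the classes did not overlap, and the log2 ratio was -4.31 overall and -4.88 to -2.44 on single plates. The means were 571 ± 356 and 27.9 ± 14.1 CPM (SD over 5 plate means). Plates 2 and 3 were higher than the other 3 plates in supporting cells, in level and in the share of cells with SPRY2, which was 85.7, 83.3, 48.1, 50 and 33.3%. SPRY2 reached 10 CPM in 51 of 90 supporting cells, 56.7% (45.8 to 67.1%), and in 18 of 170 hair cells, 10.6% (6.40 to 16.2%). The highest supporting cell had 2525 CPM and the median supporting cell among those with SPRY2 had 633 CPM. It took 11 cells to hold 50% of the sum, against 5 for FGFR1 and 9 for SPRY1.

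Within supporting cells the Sprouty genes overlapped with each other and in part with FGFR1. SPRY2 was found in 33 of 42 cells with SPRY1, 78.6%, and in 18 of 48 without, 37.5%. Spearman's rank correlation between SPRY1 and SPRY2 was 0.40 over 90 cells, which share plates, pooled animals and depth. SPRY1 was found in 21 of 34 supporting cells with FGFR1, 61.8%, and in 21 of 56 without, 37.5%, and SPRY2 in 23 of 34 and 28 of 56, 67.6 and 50%. The rank correlation was 0.21 between FGFR1 and SPRY1 and 0.27 between FGFR1 and SPRY2. Genes per cell had a rank correlation of 0.28 with FGFR1, 0.47 with SPRY1 and 0.35 with SPRY2. The complexity of a cell therefore moved with all 3 genes within supporting cells, and its part in their overlap was not tested. In hair cells SPRY1 and SPRY2 were found together in 2 cells, against 19 with SPRY1 alone and 16 with SPRY2 alone.

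Some immediate early genes were correlated with the Sprouty genes more than others. EGR1, a transcription factor gene switched on by MAP kinase signalling and by cell handling, was among the 3 genes most like SPRY1 and SPRY2 over all 260 classed cells, with rank correlations of 0.48 and 0.52. Within the 90 supporting cells the rank correlation with EGR1 was 0.55 for SPRY1 and 0.48 for SPRY2, and with FOS 0.50 and 0.39. It was lower with JUN, at 0.26 for both Sprouty genes, and with ATF3, at 0.21 for SPRY1 and 0.30 for SPRY2. With the FGF response gene DUSP6 it was 0.08 for SPRY1 and -0.03 for SPRY2. With ETV5, a further gene of the FGF pathway, it was 0.21 for SPRY1 and 0.19 for SPRY2, near the values with ATF3 and JUN. EGR1 had plate means of 5552, 4897, 2850, 3061 and 1708 CPM in supporting cells, highest on plates 2 and 3 and lowest on plate 6. SPRY2 also had its highest means on plates 2 and 3, with the lowest mean on plate 5 and the lowest share of cells on plate 6. SPRY1 had its highest means on plates 2 and 5 and its lowest on plate 6. A single supporting cell on plate 5 had 2072 CPM of SPRY1, so the rank of that plate rests largely on it. In hair cells the plate means of EGR1 were lower, from 106.6 to 373 CPM. The cells were enzymatically dissociated and sorted, and the part of an early response to this in the Sprouty levels was not tested. CHKA, a choline kinase gene, had the highest rank correlation with SPRY1 (0.58) and SPRY2 (0.57) within supporting cells.

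BMP2 had the highest ratio of the members in hair cells. This secreted ligand had plate means of 630, 685, 429, 392.5 and 388 CPM in hair cells and of 28.1, 8.36, 51.3, 0.220 and 0 CPM in supporting cells. The plates did not overlap, and the log2 ratio was 4.77 overall and 3.04 to 8.60 on single plates, smallest on plate 4. The means were 505 ± 141.5 and 17.6 ± 22.03 CPM (SD over 5 plate means). BMP2 reached 10 CPM in 120 of 170 hair cells, 70.6% (63.1 to 77.3%), from 66.7% on plate 6 to 77.8% on plate 3. In supporting cells it did so in 5 of 90, 5.56% (1.83 to 12.5%), and the shares after thinning were 71.2 and 5.56%. Of the BMP2 in supporting cells 57.4% came from 1 cell with 1082 CPM.

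SMAD7 had plate means of 10.6, 14.9, 52.5, 20.6 and 46.95 CPM in hair cells and of 10.98, 0.859, 33.02, 1.79 and 0.0922 CPM in supporting cells. The plates overlapped, the log2 ratio was 1.54, and plate 2 had -0.04 while plate 6 had 5.46. The means were 29.1 ± 19.2 and 9.35 ± 13.9 CPM (SD over 5 plate means), and their difference was about as large as the larger SD. It reached 10 CPM in 39 of 170 hair cells, 22.9% (16.9 to 30%), and in 6 of 90 supporting cells, 6.67% (2.49 to 13.9%). SMAD7 lies on chromosome Z in the RefSeq gene table of assembly GRCg7b, and its copy SMAD7B on W. SMAD7B had reads in 3 hair cells and in 0 supporting cells, and how the counting divided reads between the copies is not known, so SMAD7 values are uncertain.

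Reads of a gene in the class where it was low were compared with those of class markers. The lower class had 0.178% of the mean of the higher class for FGFR1, 4.17% for BMP2, 5.25% for SPRY1, 5.70% for SPRY2, 25.5% for FGFR2 and 42.5% for SMAD7. For the 16 supporting cell markers, which served in the class rule, hair cells had a median of 0.440% of the supporting cell level, and for the 22 hair cell markers supporting cells had a median of 1.91% of the hair cell level. FGFR1 in hair cells was thus below the median of the supporting cell markers, and the other 5 members were above the median of the markers of their class. OCM, which the class rule did not use, reached 10 CPM in 23.3% of supporting cells at 0.401% of the hair cell level, and the marker GJB2 did in 6.47% of hair cells. For FGFR2, BMP2 and SMAD7 in supporting cells, background cannot be told apart from expression in a few cells.

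Among hair cells, OCM level was compared next. ATOH1 reached 10 CPM in 37 OCM-low cells and stayed below it in 69, so OCM-low was not read as immature. Whether the OCM split follows maturity was not tested. FGFR1 passed the limit of 5 cells outside the hair cells, so 5 members reached 10 CPM in at least 5 hair cells. Of these, BMP2 and SPRY2 were higher in OCM-high cells by 2-fold or more and SPRY1 was lower, while of the 9613 genes that reached 10 CPM in at least 5 hair cells 11.1% were higher and 16.2% lower, 27.3% in all. Over all 10677 measured genes the shares were 12%, 17% and 29%. FGFR1 had 0 counts in the 64 OCM-high cells, which allows reads in up to 4.69% of cells, and 17 counts in the OCM-low cells. Those counts came only from cells with 6.37, 3.44 and 33.4 CPM, so the comparison rests on few cells and was not read as a difference. FGFR2 was 42.8 ± 16.2 CPM in OCM-high and 64.6 ± 44.1 CPM in OCM-low cells, with a log2 ratio of -0.58 and 3 of 5 plates going the other way. SMAD7 was 29.9 ± 21.03 and 28.5 ± 18.6 CPM. For both genes the difference was smaller than the spread between plates.

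BMP2 differed by OCM in its distribution more than in its mean. Plate means were 891, 1131, 667, 638 and 585 CPM in OCM-high cells and 456, 489, 261.6, 221.6 and 276.2 CPM in OCM-low cells. OCM-high cells were higher on all 5 plates, the plates did not overlap, and the log2 ratio was 1.20 (0.96 to 1.52 on single plates). Yet BMP2 reached 10 CPM in 36 of 64 OCM-high cells, 56.2% (43.3 to 68.6%), and in 84 OCM-low cells, 79.2% (70.3 to 86.5%). As the difference of mean log2(CPM + 1) the comparison turned to -1.18. Among cells with BMP2 at 10 CPM or more the median was 928 CPM in OCM-high and 297.7 CPM in OCM-low cells. OCM-high cells divided into 27 with 0 counts of BMP2, 20 with reads under 1000 CPM and 17 at 1000 CPM or more, and the OCM-low cells into 17, 81 and 8.

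**Figure D4:**
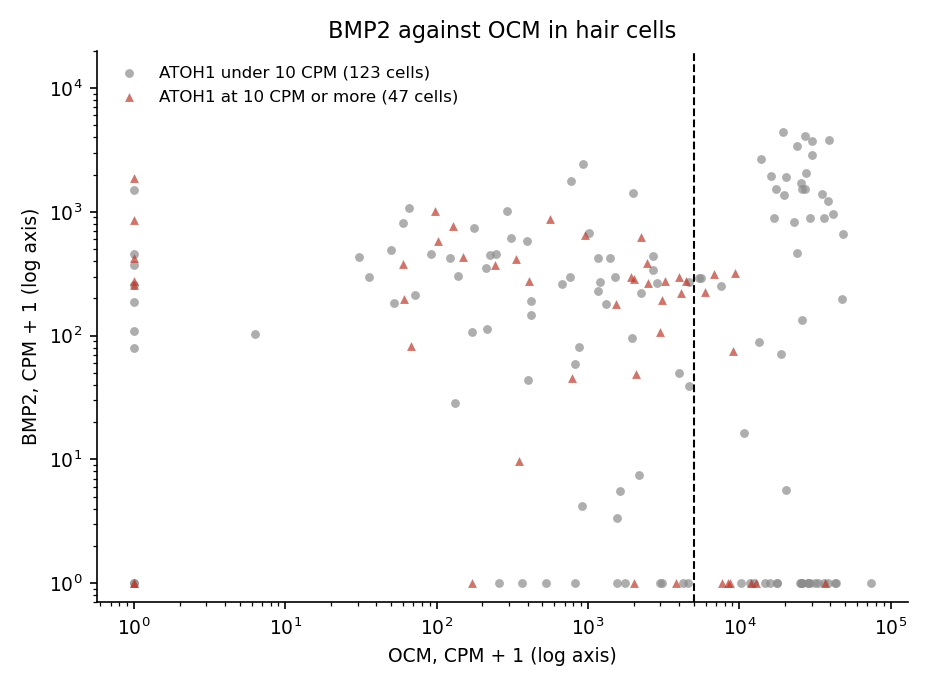
BMP2 against OCM in each of the 170 hair cells, as CPM + 1 on log axes, with ATOH1-detected cells as triangles and a dashed line at 5000 CPM of OCM. OCM-low cells with BMP2 at 10 CPM or more have a median of 297.7 CPM, and 8 OCM-low cells are at 1000 CPM or more. The 64 OCM-high cells are 27 at 0, 20 with reads under 1000 CPM and 17 at 1000 CPM or more.

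The OCM-high cells with 0 counts of BMP2 had a median of 3571 genes and 412458 counts, against 3327 genes and 442454 counts in the 37 cells with reads, and they came from all 5 plates (5, 4, 6, 7 and 5 cells). Their genes per cell were thus higher and their counts lower, and the part of depth in the absence of BMP2 reads was not tested. In steps of OCM, BMP2 was found in 29 of 40 cells at 1000 to 5000 CPM, in 7 of 10 at 5000 to 10000 CPM, in 9 of 18 at 10000 to 20000 CPM and in 20 of 36 at 20000 CPM or more. Its median among detected cells was 268.5, 291.5, 1375 and 1449 CPM in these steps, so the higher medians began above 10000 CPM of OCM.

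Genes that followed BMP2 within the 64 OCM-high cells were looked up after the BMP2 values were seen, among the 3470 genes found in at least 20 of these cells. The highest rank correlation with BMP2 was that of RPP25 (0.78), with 543 CPM in the 37 cells with BMP2 reads and 24.3 CPM in the 27 without. Among the next were TMEM108 (0.70), the potassium channel gene KCNQ5 (0.67) and the neurotrophin gene BDNF (0.67). BDNF was 2900 CPM with and 1173 CPM without BMP2. At the other end were FOS (-0.61), at 12.6 CPM with and 127.4 CPM without BMP2, and the mechanotransduction channel gene TMC2 (-0.60), at 261.3 CPM with and 1044 CPM without. These correlations are over cells that share plates and animals. The named genes are from the ends of the ranking, and their means with and without BMP2 come from the same cells. Those means therefore restate the ranking and add no support to it. In OCM-low cells the rank correlation of BMP2 with FOS was 0.06.

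The Sprouty genes were sparse among hair cells. SPRY1 was 5.60 ± 5.66 CPM in OCM-high and 19.9 ± 11.9 CPM in OCM-low cells, lower in OCM-high cells on all 5 plates, with a log2 ratio of -1.66. It was detected in 6 of 64 OCM-high and in 15 OCM-low cells, shares of 9.38% (3.52 to 19.3%) and 14.2% (8.14 to 22.3%) whose intervals overlap widely. SPRY2 was 50.2 ± 37.04 and 14.4 ± 9.62 CPM, with a log2 ratio of 1.73, from 9 cells in each group. On plate 4 the ratio was -4.72, with 0 CPM in OCM-high cells, and on the other plates it was 1.47 to 3.36. Both values rest on few cells.

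ATOH1 detection divided the hair cells in another way. Hair cells with ATOH1 had a mean OCM of 3756 ± 2223 CPM and those without it 12152 ± 1758 CPM, and 37 of the 47 cells with ATOH1 were OCM-low. Of the same 5 members SPRY1 was 2-fold higher and SMAD7 2-fold lower with ATOH1, while 12.1% of the 9613 genes found in hair cells were higher and 15.5% lower, 27.6% in all. Over all measured genes the shares were 12.9%, 16.3% and 29.3%. SMAD7 had plate means of 1.53, 4.62, 33.6, 8.03 and 16.8 CPM with ATOH1 and 14.5, 18.4, 61, 23.3 and 64 CPM without. It was lower with ATOH1 on each plate, although the groups overlapped across plates, and the log2 ratio was -1.42. The shares of cells with SMAD7 were close, 21.3% (10.7 to 35.7%) and 23.6% (16.4 to 32.1%). SPRY1 had a ratio of 1.27 that went the other way on 2 of 5 plates, and it turned to -1.10 when ATOH1 was called at 50 CPM.

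BMP2 was 301.5 ± 128.8 CPM with and 579 ± 162.5 CPM without ATOH1, lower on all 5 plates, with a log2 ratio of -0.94. Within OCM-low cells the ATOH1 groups had a log2 ratio of 0.19 for BMP2, lower on 3 plates and higher on 2. SMAD7 was found at 10 CPM or more in 5 of 37 OCM-low cells with ATOH1 and in 17 of 69 without, so its comparison rests on few cells. Its log2 ratio there was -1.88, and it was lower on each of the 5 plates. It was the 1 member past 2-fold of the 5 that reached 10 CPM in at least 5 OCM-low cells. Of the 8786 genes that did so 15.2% were higher and 15.4% lower, 30.6% in all, and of all measured genes 16.9% were higher and 16.9% lower, 33.8% in all. FGFR2 was 41.7 ± 18.4 CPM with and 63.3 ± 38.9 CPM without ATOH1, in 57.4% (42.2 to 71.7%) and 52.8% (43.6 to 61.9%) of cells, and differed by less than the spread between plates. The 1 hair cell with FGFR1 at 10 CPM or more, at 33.4 CPM on plate 4, was an OCM-low cell with ATOH1.

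Other genes of the FGF pathway were read from a list chosen with earlier results of these data known. Without the members, 29 of its genes were measured, of which 14 were 2-fold lower and 4 higher in hair cells and 11 lay between, beside 25% lower and 28.2% higher among all measured genes. The median log2 ratio was -0.94 in the list and 0.09 over all measured genes. The limit of 5 cells could be met through 1 class alone, which largely fixed the direction of such genes. FGF9 and FLRT2 reached 10 CPM in 0% of hair cells, and SPRY3 and DUSP4 in 1.11% of supporting cells. DUSP6, a MAP kinase phosphatase gene and FGF response gene, was 11.8 ± 7.60 CPM in hair and 64.3 ± 42.6 CPM in supporting cells, a log2 ratio of -2.35, and reached 10 CPM in 61.1% of supporting cells. FGF12, which encodes an intracellular FGF that modulates sodium channels, was 20.3 ± 4.39 and 1.82 ± 1.75 CPM, a ratio of 2.92. The other 3 genes that were higher in hair cells, DUSP4, SPRY3 and FRS3, were detected in under 15% of hair cells and are named after their values were seen. Ligand genes, also named for their role after their values were seen, were mixed. FGF10 was 345 ± 107.7 CPM in hair and 232.1 ± 172.8 CPM in supporting cells, and FGF3 38.3 ± 11.97 and 23.7 ± 31.6 CPM, within the spread between plates. FGF1 was 32 ± 60.2 and 20.8 ± 20.6 CPM. FGF9 was 0 CPM in hair and 10.7 ± 10.2 CPM in supporting cells, and FGF20 0.483 ± 1.08 and 19.9 ± 21.8 CPM. These last genes reached 10 CPM in 8.89% and 6.67% of supporting cells.

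Of the FGF list 21 genes other than the members reached 10 CPM in at least 5 hair cells. In OCM-high cells 4 of them were 2-fold higher and 7 lower, beside 11.1% and 16.2% of all genes found in hair cells, and with ATOH1 4 were higher and 4 lower, beside 12.1% and 15.5%. FGF10 was 599 ± 167.1 CPM in OCM-high and 184.05 ± 84.6 CPM in OCM-low cells, a log2 ratio of 1.70 that held its direction on all 5 plates, and reached 10 CPM in 90.6% and 70.8% of cells. DUSP4, another MAP kinase phosphatase gene, was 108.2 ± 13.8 CPM in cells with ATOH1 and 2.40 ± 2.92 CPM in the others, a ratio of 5.00. It was detected in 19 of 47 cells with ATOH1 and in 3 of the others. Within OCM-low cells DUSP4 was 122.1 ± 10.1 CPM with and 0.164 ± 0.306 CPM without ATOH1. FGF3 was lower with ATOH1 on every plate, 21.6 ± 20.5 against 44.97 ± 11.4 CPM (log2 ratio -1.03). Within OCM-low cells the log2 ratio of FGF3 was -0.64, under 2-fold, and it did not go the same way on every plate.

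**Figure D5:**
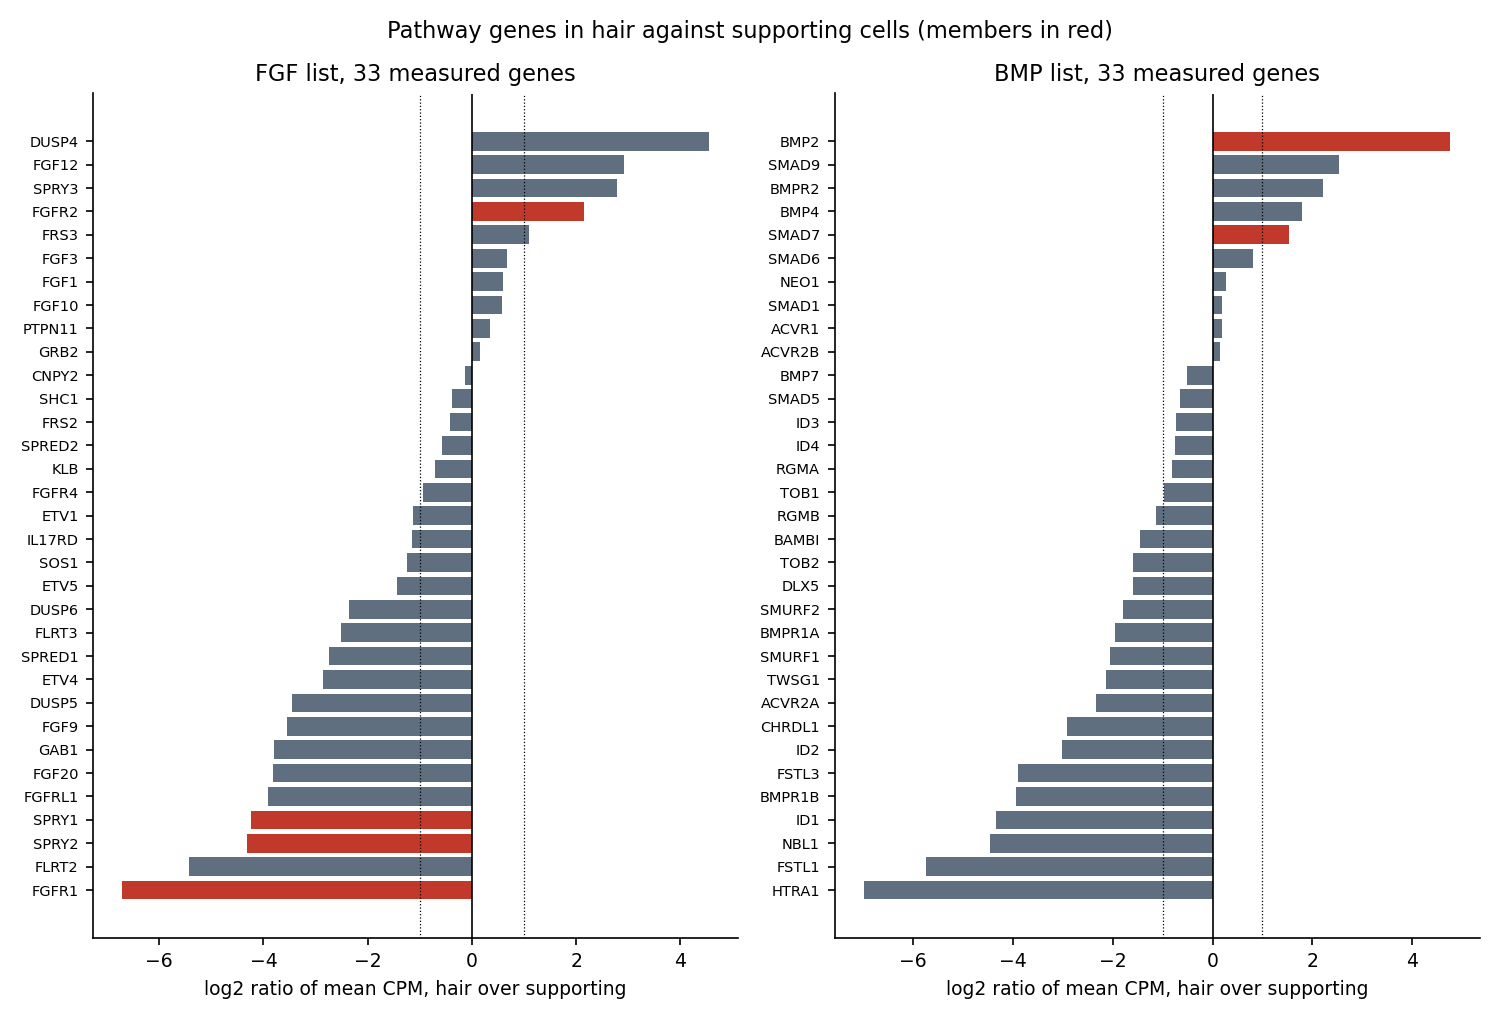
Log2 ratio of mean CPM in hair over supporting cells for the 33 measured genes of the FGF list and the 33 of the BMP list, with dotted lines at 2-fold and the members in red. FGFR1 is the lowest FGF list gene at -6.70 and BMP2 the highest BMP list gene at 4.77.

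In the BMP list 31 genes other than the members were measured, of which 17 were 2-fold lower and 3 higher in hair cells and 11 lay between, beside 25% lower and 28.2% higher among all measured genes. The median log2 ratio of the list was -1.45. Here too the limit of 5 cells could be met through 1 class alone. FSTL3 reached 10 CPM in 0% of hair cells, and SMAD9 in 2.22% of supporting cells. The targets ID1 and ID2, inhibitors of basic helix-loop-helix factors, were 3.11 ± 3.65 and 20.2 ± 12.4 CPM in hair cells and 81.8 ± 29.1 and 170 ± 92.03 CPM in supporting cells (log2 ratios -4.33 and -3.01). ID3 and ID4 of the same list had smaller ratios, -0.74 and -0.76, and neither went the same way on every plate. ID4 reached 10 CPM in 64.1% of hair and 60% of supporting cells. Genes of secreted modulators were also lower in hair cells, with HTRA1, a protease, at 2.79 ± 3.02 against 479 ± 96.3 CPM (-6.99), FSTL1 at -5.74, NBL1 at -4.47, CHRDL1 at -2.92 and TWSG1 at -2.13. The 3 genes in the direction of BMP2 were BMP4 (1.79), BMPR2 (2.21) and SMAD9 (2.53), each detected in under 30% of hair cells and named after their values were seen.

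Of the BMP list 24 genes other than the members reached 10 CPM in at least 5 hair cells. In OCM-high cells 6 of them were 2-fold higher and 3 lower, and with ATOH1 4 were higher and 4 lower, beside the same shares of all genes found in hair cells. BMPR2, a BMP receptor gene, was lower in OCM-high than in OCM-low cells on every plate (log2 ratio -1.09), with means of 35.97 ± 36.5 and 77.8 ± 68.8 CPM. SMAD1, a receptor-regulated Smad, was 12.5 ± 6.73 CPM with ATOH1 and 93.6 ± 37.7 CPM without (-2.81). Within OCM-low cells the log2 ratio of SMAD1 was -2.67, but it did not go the same way on every plate. As differences of mean log2 values the counts of genes lower in hair than in supporting cells, members included, were 7 in place of 17 in the FGF list and 8 in place of 17 in the BMP list. By that measure 768 of all 10677 measured genes were 2-fold lower, in place of 2665, and 3213 higher, in place of 3010.

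Genes with the pattern most like each member were sought over the 260 classed cells by Spearman's rank correlation. For FGFR1 they were ANTXRL (0.54) and the supporting cell markers OTOGL (0.52) and GJB2 (0.51), and for FGFR2 CIB3 (0.52), B3GNTL (0.52) and the hair cell marker PTPRQ (0.51). For BMP2 they were ELFN1 (0.62), ZONADHL (0.62) and LPGAT1 (0.60). Besides EGR1, SOX10 had 0.47 with SPRY1 and 0.54 with SPRY2, FOS 0.46 with SPRY1 and S100A6 0.53 with SPRY2. The highest value was 0.30 for SMAD7 and 0.40 for FGFR3, which in such sparse counts is no finding. Values over both classes carry the difference between the classes, and OTOGL, GJB2 and PTPRQ served in the class rule. Within the class of the higher level, no gene reached 0.5 with FGFR1, FGFR2 or BMP2. The highest values there were 0.43, 0.35 and 0.46. Between members within hair cells the largest rank correlation was 0.12 in size, over 15 pairs of genes.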

How the data were processed

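Full-length single-cell cDNA (Smart-seq2) of 300 sorted chicken utricle cells was sequenced, per the labels' protocols, after 22 amplification cycles. The deposited values are estimated counts per gene and cell; the submitters' processing notes name STAR, RSEM and FastQC, while versions, build and annotation were not given in the sources used here. Of the values above 0, 4.28% were not whole. The 12 symbols on 2 rows were summed. Cells with at least 1000 genes and 50000 counts were kept, scaled to CPM and classed by GJB6 and marker shares. No doublet caller was run on these sorted single cells, 16 unclassed cells were set aside, and 0 pairs of cells had identical values. Total counts ran from 62846 to 1234012 per cell.

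Means were taken within plates, then over the 5 plates, and ratios are log2 with a pseudocount of 1 CPM. A gene was measured if 5 cells reached 10 CPM, and within hair cells also if 5 of the cells compared did. Estimated counts were rounded for thinning. Intervals are at 95%, and they and the limit for 0 (3 counts) cover counting error only, since reads carry no molecular identifiers. No animal is named per cell, so no p-value was computed. The members and lists were chosen with earlier results of these data known. Named list genes passed 2-fold, reached 10 CPM in 30% of the higher group and moved one way on every plate, at most 8 per list and direction. Levels were not compared between genes, since lengths were not used here. Python 3.11.15, numpy 2.4.6, pandas 2.3.3, scipy 1.17.1 and matplotlib 3.10.9 were used.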

Additional observations from a re-analysis of the deposited data

Results flagged for a closer look

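Of 30 sets of 5 plate means of the members, 2 had a plate whose gap to the nearest other plate, divided by the range of the set, was over the critical value of 0.710, which chance exceeds in about 1 of 20 sets. FGFR2 in supporting cells was 31.8 CPM on plate 4 and 3.63 to 10.02 CPM on the other plates, a ratio of 0.774. A single supporting cell of the 27 on plate 4 had 738 CPM, and this flag rests largely on it. FGFR2 in OCM-high hair cells was 70.6 CPM on plate 3 and 29.8 to 41.2 CPM on the other plates, a ratio of 0.721. Here a single cell of the 11 on plate 3, with 1126 genes, had 423 CPM, and the flag rests largely on that cell.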

How the results depend on the processing

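All 7 members kept their direction between hair and supporting cells in the 16 alternatives run for them. FGFR1, -6.70 on the log2 scale, was -5.02 with GJB6 at 3000 CPM, -4.72 with marker shares alone, -8.40 with a pseudocount of 0.1, -3.81 with a pseudocount of 10 and -2.87 as a difference of mean log2 values. FGFR3 was -5.03 with a pseudocount of 0.1 and -0.25 as a difference of mean log2 values. In the BMP list, 5 genes were 2-fold higher in hair cells, but 3 with a pseudocount of 10, 10 with no gene filter and 8 with cells of at least 2000 genes and 100000 counts; that cell filter gave 8 in place of 5 in the FGF list. As differences of mean log2 values, 7 FGF and 8 BMP list genes were lower, in place of 17 and 17. Among all 10677 measured genes 768 were lower by that measure, in place of 2665, and 3213 higher, in place of 3010. The count of members past 2-fold by OCM, 3, was 1 as differences of mean log2 values and 1 with OCM-high at 1000 CPM. By ATOH1 the count was 2, but 1 with a pseudocount of 10, 0 as differences of mean log2 values and 6 with ATOH1 at 50 CPM. The 6 included FGFR1, which reached 10 CPM in 1 hair cell. With a plate left out the count was 1 to 3, at 1 without plate 3 and at 3 without plate 2. The shares of all measured genes past 2-fold by OCM and ATOH1 under these settings are not given, so these counts are no result about the members. BMP2 by OCM turned from 1.20 to -1.18 as a difference of mean log2 values, and SPRY1 by ATOH1 from 1.27 to -1.10 with ATOH1 at 50 CPM. FGFR2 without FGFR1 was found in 54.1% of hair cells, but 28.2% with a limit of 50 CPM, and the receptor contrast of 5.74 was 8.71 with a pseudocount of 0.1. The cause of these shifts was not tested. Apart from 21 values of the main results and 10 of single genes, and 2 more that reversed, those under the alternatives stayed within the spread between plates, within the binomial interval of a share or within 1.5 times the count. That spread was wide for some members, so staying within it says little there. The SD of plate log2 ratios was 4.54 for SPRY2 by ATOH1 and 2.42 for BMP2 between hair and supporting cells. Chosen after seeing the data were the receptor contrast with cells classed by marker shares and the limit of 5 cells within the groups compared, which left the counts of members past 2-fold at 3 by OCM and 2 by ATOH1. The median log2 ratio over all measured genes was 0.24 higher under median-of-ratios scaling and 0.31 higher as a difference of mean log2 values. The share of higher genes among those past 2-fold was 53.04%, 60.8% and 80.7% by total, by median-of-ratios and by mean log2 values. Ratios within plates stand beside the pooled ones, and no block was fitted, since no result comes from a test. Detection of 1 read differs with depth, so a member at 0 in a cell may be present below detection.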
